A study of Homo sapiens with 60 samples.

Results

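Replication-dependent histone genes encode the bulk of the H1, H2A, H2B, H3 and H4 proteins that package newly made DNA. In this series, 20 such genes were described in SW1783, an established human astrocytoma cell line, after 24 h with water extracts of medicinal plants. The genes were those whose current symbol follows the pattern of the H1-1 to H1-5, H2AC, H2BC, H3C or H4C genes, without pseudogenes, and whose mean over all 60 libraries was at least 0.5 CPM, read counts scaled to library size. Of 68 genes that match the pattern, among 60675 genes in the table, 20 reached that level. They comprised 1 of 5 H1 genes, 5 of 17 H2A genes, 8 of 18 H2B genes, 3 of 13 H3 genes and 3 of 15 H4 genes. They were thus chosen by their mean level over all libraries, without use of the groups. Just inside the threshold were H3C8 at 0.670 and H2BC11 at 0.800 CPM, and just outside were H3C14 and H3C15 at 0.488 CPM each. The last 2 are near-identical copies with the same estimated mean, lowest and highest level. Their reads are thus divided by estimation, and their sum would pass the threshold.

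The libraries fall into 25 groups. Each of 8 water extracts was given at 500 µg/mL (high), 100 µg/mL (medium) and 20 µg/mL (low). The single herbs were Cnidii Rhizoma (Cnidium), Rehmanniae Radix Preparata (Rehmannia), Angelicae Gigantis Radix (Angelica), Paeoniae Radix (Paeonia), Cinnamomi Cortex (Cinnamon) and Astragali Radix (Astragalus). Sagunja-tang and Samul-tang are traditional formulas of several herbs, and Samul-tang is usually made from Angelica, Paeonia, Cnidium and Rehmannia. The vehicle group had 0.1% DMSO by the sample labels, which name DMSO for these libraries alone. The series' design text gives another DMSO concentration for the vehicle, and which one holds is not settled here. The vehicle, Cnidium, Rehmannia, Cinnamon, Astragalus and Sagunja-tang groups had 3 libraries each, the Samul-tang groups 2, and the Angelica and Paeonia groups 1. The sample codes put the vehicle in a set of its own and pair the extracts in further sets, namely Cnidium with Rehmannia, Cinnamon with Astragalus, Sagunja-tang with Samul-tang, and Angelica with Paeonia. A difference between an extract and vehicle therefore cannot be told apart from a difference between sets or solvents, whereas the doses of 1 extract lie within 1 set.

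Library totals ran from 20604748 to 29609771 estimated counts, with 22705 to 23990 genes detected. Of 10 astrocyte markers, 5 had a mean below 1 CPM, among them GFAP, the intermediate filament of astrocytes, at 0.065 CPM, and AQP4, their water channel, at 0.016 CPM. The other 5 were GJA1 at 232, CLU at 123, SOX9 at 76.0, SLC1A3 at 23.4 and NES at 6.68 CPM. The collagen gene COL1A1 was at 3576 CPM. Library 1 of the low dose of Sagunja-tang stood apart from its replicates, with a median chi-square per gene of 22.7 to 24.0 against them where all other replicate pairs had 0.601 to 2.92. Results that rest on it are given with and without it. Whether libraries of a group stem from separate cultures is not stated, and the p-values reflect only their spread, which may be technical. In bulk RNA, a smaller share of cells in S phase and less histone RNA per cell cannot be told apart.

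Replication-dependent histone genes lie in clusters and are transcribed mainly while DNA is copied. Most of their mRNA has no poly(A) tail: it ends just after a conserved stem-loop, which is bound by the protein SLBP and sets when the mRNA is made and destroyed. Some of these genes also make longer, polyadenylated mRNA from a signal further downstream, which can persist outside S phase. The labels describe mRNA libraries, in which polyadenylated forms are the ones mainly seen.

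The stem-loops are shown because they mark the end of the tail-less form. The search covered GENCODE 29 protein-coding transcripts downstream of the longest reading frame, and the capitals mark the paired stem on either side of the 4-base loop. A stem-loop was found in 17 of the 20 genes and in 14 of the other 48, and it took 6 forms in all.
H2AC6 and H2BC21, with 15 other genes: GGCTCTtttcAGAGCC
H2BC5, H2BC4 and H3C8, with H2BC7: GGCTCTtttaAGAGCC
H4C14 and H4C15, with H4C9: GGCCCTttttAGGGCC
H4C8, with 4 other H4 genes: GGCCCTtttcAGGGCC
H3C6 alone: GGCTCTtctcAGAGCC
H2AC11 alone: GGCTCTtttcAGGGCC

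Annotated transcript ends differed between the 20 genes and the rest. The rule did not name this feature, but the level it used was not scaled by transcript length. A longer annotated transcript can collect more counts, so the contrast may be partly built into the choice. A poly(A) signal, AATAAA or ATTAAA, lay within 50 bases of an annotated transcript end in 17 of the 20 and in 5 of the other 48. More than 100 bases followed the stem-loop in 14 of the 20 and in 9 of the 48. The median longest transcript had 1083 bases in the 20 genes and 411 in the rest, but several of the 20 were short, such as H2BC12 with 381 and H2AC18 with 549 bases. This contrast depends on the annotation: in 32 of the 48 other genes, and in 2 of the 20, the annotated transcript stops at the reading frame and can hold none of these features. Among genes annotated past the frame, a poly(A) signal near the end was found in 17 of 18 and in 5 of 16, a stem-loop in 17 of 18 and 14 of 16, and more than 100 bases after it in 14 of 18 and 9 of 16. In H2AC6 the transcript ran 1114 bases past the stem-loop, in H2BC21 1729 bases and in H4C15 690 bases. The 2 genes annotated only to the end of the frame were H1-2, with 642 bases, and H2BC12, so their ends cannot be read from this annotation.

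**Figure D1:**
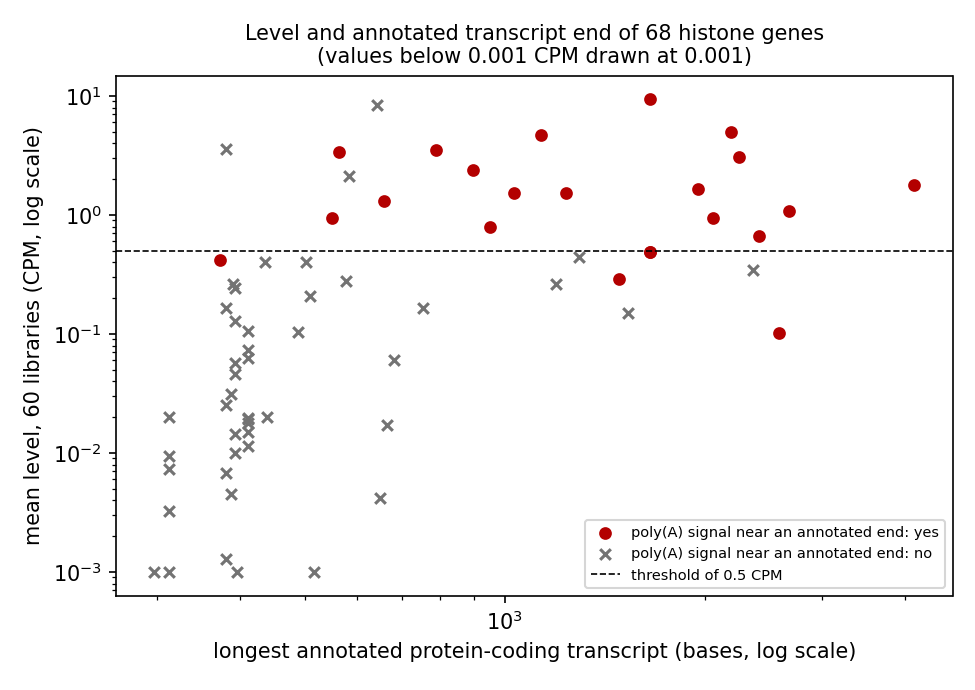
Mean level over 60 libraries (CPM, log scale) against the longest annotated protein-coding transcript (bases, log scale) for 68 histone genes, 1 point per gene, with circles for genes with a poly(A) signal near an annotated end and crosses for those without. Most points above the dashed line at 0.5 CPM are circles, 17 of 20, and most points below it are crosses.

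The promoters of the 6 genes on which most of the results turn are shown next, as the 120 bases before the RefSeq start on GRCh38.p14, read along the strand of the gene. Capitals mark the CCAAT box, the TATA motif TATAAA and the octamer ATTTGCAT on either strand.
H2AC6, chr6:26124052-26124171, plus strand: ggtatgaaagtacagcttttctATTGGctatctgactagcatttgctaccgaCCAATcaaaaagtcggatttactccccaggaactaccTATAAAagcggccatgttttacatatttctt
H2BC12, chr6:27146859-27146978, minus strand: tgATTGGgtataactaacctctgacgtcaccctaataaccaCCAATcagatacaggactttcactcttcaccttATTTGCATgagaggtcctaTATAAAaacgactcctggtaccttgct
H2BC21, chr1:149886683-149886802, minus strand: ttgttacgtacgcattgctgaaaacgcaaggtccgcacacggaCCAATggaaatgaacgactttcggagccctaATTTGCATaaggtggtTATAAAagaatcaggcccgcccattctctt
H2BC5, chr6:26158001-26158120, plus strand: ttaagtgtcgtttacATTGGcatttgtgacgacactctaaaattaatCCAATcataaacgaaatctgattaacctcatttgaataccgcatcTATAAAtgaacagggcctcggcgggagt
H1-2, chr6:26056471-26056590, minus strand: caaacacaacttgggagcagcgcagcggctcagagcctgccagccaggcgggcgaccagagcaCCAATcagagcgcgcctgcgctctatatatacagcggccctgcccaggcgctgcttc
H4C15, chr1:149861160-149861279, minus strand: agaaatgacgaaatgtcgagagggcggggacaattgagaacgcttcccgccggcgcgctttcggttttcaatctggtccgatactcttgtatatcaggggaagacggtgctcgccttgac

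RefSeq listed 23 promoters for the 20 genes. Within 250 bases before the start, CCAAT was in 20 of these 23, against 32.0% of 35116 promoters, and TATAAA in 13, against 10.7%. The octamer, known from H2B promoters as the site of OCT1, was in 9 of the 23, 7 of them among the 10 H2B promoters, against 1.63% of all promoters. None of the 3 motifs was in the 3 H4 promoters within that window.

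Of the 20 genes, 13 lie on chromosome 6 and 7 on chromosome 1 (GRCh38, GENCODE 29). H2AC6 spans chr6:26124145-26139116 on the plus strand, H1-2 chr6:26055787-26056428 on the minus strand, H2BC12 chr6:27146418-27146798 on the minus strand and H2BC5 chr6:26158146-26171349 on the plus strand. H2BC21 spans chr1:149884459-149886652 and H4C15 chr1:149854045-149861210, both on the minus strand. For 5 of the 20 genes, H4C14, H4C15, H2BC5, H2BC15 and H2BC18, the annotated span overlaps another gene, so that reads could be shared. Reads from near-identical copies were divided by estimation: H2AC18 was at 0 in vehicle libraries 1 and 2 and at 1.39 CPM in library 3, while the sum of H2AC18 and H2AC19 was 4.04, 3.96 and 4.82 CPM. Single values of H2AC18, H2AC19, H4C14 and H4C15, and of H3C14 and H3C15 outside the 20, are uncertain for that reason.

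The genes were low throughout. Library counts ranged from 172 to 405 for H2AC6, which had the most, and from 8 to 27 for H3C8, so counting error limits the precision of the lower genes. Of the 20, 19 were above 0.5 CPM on average in every one of the 25 groups, H2AC18 being the exception. Per length of the longest transcript, the level was highest for H1-2, a linker histone, at 13.1 CPM per kb, followed by H2BC12 at 9.36, H2AC19 at 6.04 and H2AC6 at 5.65 CPM per kb. The lowest was H3C8 at 0.278 CPM per kb. The order at the top is uncertain, since the lengths of H1-2 and H2BC12 end at the frame and the level of H2AC19 shares reads with H2AC18. Not scaled by length, H2AC6 made up 16.2% of the summed CPM of the 20 genes and H1-2 14.6%. For comparison, the replication-independent genes H3-3B, which encodes H3.3, and MACROH2A1 were at 321 and 260 CPM.

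The high doses of Cnidium, Rehmannia and Samul-tang had the highest summed levels among the replicated groups. H2AC6 and the H2B genes led the difference. The sum of the 20 genes was 57.1, 58.2 and 57.1 CPM in vehicle. It was 68.1, 67.5 and 69.1 CPM at high Cnidium, 64.8, 67.0 and 63.6 CPM at high Rehmannia, and 72.0 and 68.2 CPM at high Samul-tang. Every library of these 3 groups lay above every vehicle library. Relative to the vehicle mean, the sum was 1.19 ± 0.0140 (SD, n = 3), 1.13 ± 0.0303 (SD, n = 3) and 1.22 ± 0.0474 (SD, n = 2). At high Angelica it was 66.6 CPM and at high Paeonia 68 CPM, 1.16 and 1.18 times the vehicle mean, each in 1 library without a replicate. Lower sums than in these groups were found at high Cinnamon, with 61.0, 58.2 and 57.6 CPM, at high Astragalus, with 56.0, 56.8 and 56.5 CPM, and at high Sagunja-tang, with 49.3, 53.3 and 52.8 CPM. These last 2 groups lay below all vehicle libraries, although with library totals in place of TMM scaling the high Astragalus mean was 1.02 times that of vehicle. At the low dose, the sums of Cnidium (56.2 to 56.4 CPM) and Rehmannia (54.3 to 58.9 CPM) were close to or overlapped those of vehicle. Low Samul-tang, at 55.5 and 51.6 CPM, low Cinnamon, at 49.2 to 53.0 CPM, and low Astragalus, at 49.8 to 53.0 CPM, lay below every vehicle library.

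**Figure D2:**
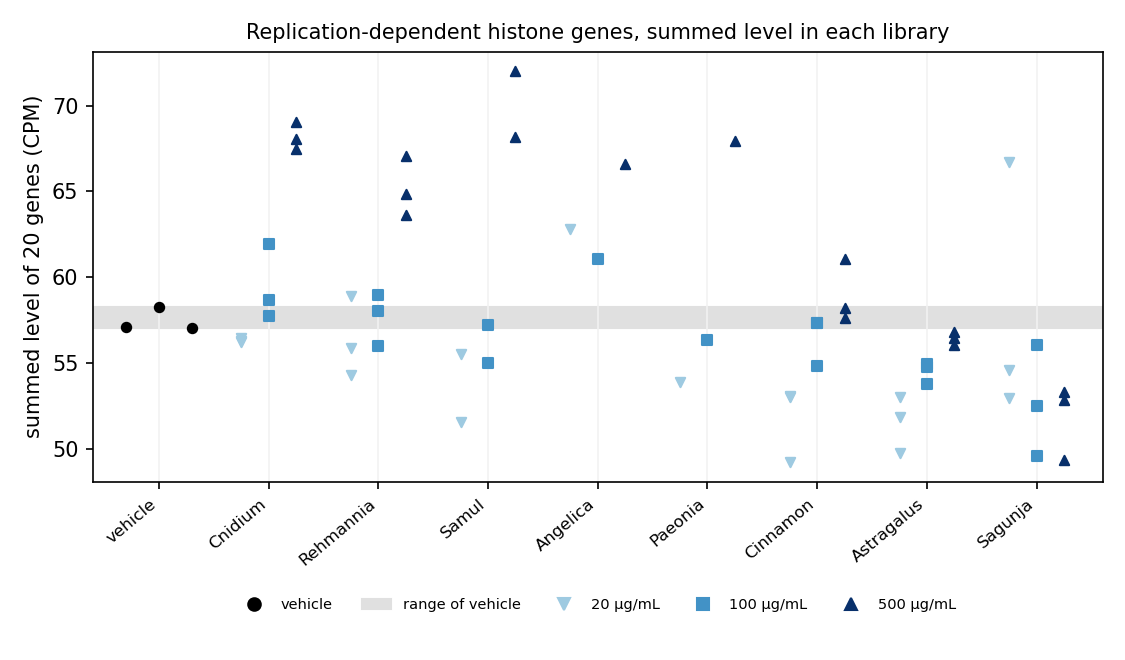
Summed level of the 20 histone genes (CPM) in each of 60 libraries, by extract, with vehicle as black circles, its range as a grey band, and triangles pointing down, squares and triangles pointing up for 20, 100 and 500 µg/mL. The high-dose libraries of Cnidium, Rehmannia, Samul-tang, Angelica and Paeonia, at 63.6 to 72.0 CPM, sit above the vehicle band, and those of Sagunja-tang, at 49.3 to 53.3 CPM, sit below it.

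At high Cnidium against vehicle, 2 of the 20 genes rose and none fell in edgeR's quasi-likelihood test with Benjamini-Hochberg adjustment over 17516 genes. In that comparison 1.35% of all genes tested were called. The median log2 fold change was 0.35 over the 20 genes, 16 of them above 0, and 0.01 over all genes. H2AC6, a core histone H2A gene, was at 7.72, 11 and 9.10 CPM in vehicle and at 12.5, 13.4 and 12.8 CPM at high Cnidium. The groups did not overlap, and the log2 fold change was 0.49 ± 0.12 (SE), or 1.40-fold, with an edgeR adjusted p of 0.0205. H2BC12, an H2B gene, was at 2.96, 3.72 and 2.78 CPM in vehicle and at 4.91, 5.11 and 5.44 CPM at high Cnidium. Again no library overlapped, and the log2 fold change was 0.72 ± 0.16, or 1.65-fold (edgeR adjusted p = 0.00936). The H2AC6 call was lost without vehicle library 1 or 3 or any 1 Cnidium library (edgeR adjusted p from 0.0533 to 0.233, log2 fold change from 0.37 to 0.63), and the H2BC12 call without vehicle library 1 or 3 or Cnidium library 3 (0.0711 to 0.0819).

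At high Rehmannia against vehicle, 1 of the 20 genes, H2BC12, rose and none fell, where 2.37% of all genes tested were called. H2BC12 was at 4.83, 5.02 and 4.42 CPM, above all 3 vehicle libraries, and its log2 fold change was 0.61 ± 0.16, or 1.52-fold (edgeR adjusted p = 0.0263). The call was lost without vehicle library 1 or 3 or Rehmannia library 1 or 2 (0.088 to 0.156). H2AC6 was at 11.2, 11.6 and 12.1 CPM, above the vehicle libraries as well, but did not pass the test, with a log2 fold change of 0.33 ± 0.12 and an edgeR adjusted p of 0.141. Over the 20 genes the median log2 fold change was 0.23, with 12 above 0.

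At high Samul-tang against vehicle, 4 of the 20 genes rose and none fell, the most of any comparison, where 4.13% of all genes tested were called. The median log2 fold change over the 20 genes was 0.39, with 17 above 0. H2AC6 was at 14.9 and 11.5 CPM, and its log2 fold change was 0.52 ± 0.13, or 1.44-fold (edgeR adjusted p = 0.0108). The other 3 were H2B genes. H2BC12 was at 5.14 and 4.46 CPM, with a log2 fold change of 0.62 ± 0.17 (edgeR adjusted p = 0.0297). H2BC5 was at 3.19, 3.11 and 2.94 CPM in vehicle and at 4.30 and 4.57 CPM at high Samul-tang, with a log2 fold change of 0.54 ± 0.14, or 1.45-fold (edgeR adjusted p = 0.0144). H2BC21, an H2B gene of the chromosome 1 cluster, was at 5.23, 5.09 and 4.41 CPM in vehicle and at 6.58 and 6.97 CPM at high Samul-tang, with a log2 fold change of 0.48 ± 0.13, or 1.39-fold (edgeR adjusted p = 0.024). In all 4 genes both Samul-tang libraries lay above the 3 vehicle libraries. The H2AC6 and H2BC12 calls were lost without vehicle library 1, and the H2BC12, H2BC21 and H2BC5 calls without vehicle library 3. None of these calls held without Samul-tang library 1, and only that of H2AC6 held without library 2. Those fits leave 1 library in the group. With 1 library left out in turn, the log2 fold change ran from 0.32 to 0.70 for H2AC6 and from 0.51 to 0.76 for H2BC12. It ran from 0.41 to 0.53 for H2BC21 and from 0.50 to 0.57 for H2BC5. With no filter on low counts the H2BC21 and H2BC5 calls were lost as well (edgeR adjusted p = 0.111 and 0.135).

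By protein class, the H2A and H2B sums were higher than in vehicle in all 3 extracts. The 8 H2B genes together were at 17.9, 18.1 and 16 CPM in vehicle, at 23.4, 21.5 and 24.2 CPM at high Cnidium, at 21.2, 21.2 and 20.7 CPM at high Rehmannia, and at 24.3 and 22.9 CPM at high Samul-tang. The 5 H2A genes together were at 18, 20.8 and 19.6 CPM in vehicle and at 22.5 to 24.9 CPM in the libraries of the 3 extracts. For both classes the groups did not overlap with vehicle. H2AC6 was the largest part of the H2A sum, and the other H2A genes were mixed. At high Cnidium and Samul-tang, H2AC11 and the sum of H2AC18 and H2AC19 overlapped vehicle, and H2AC25 lay below it. H2AC25 was at 2.23, 2.62 and 2.20 CPM at high Cnidium and at 2.39 and 2.48 CPM at high Samul-tang. Vehicle was at 3.19, 2.63 and 2.69 CPM. At high Rehmannia H2AC25 overlapped vehicle, and H2AC11 and that sum lay above it. The 3 H4 genes together were at 7.76, 7.27 and 8.0 CPM in vehicle, at 9.16, 8.64 and 8.13 CPM at high Cnidium and at 10.8 and 8.46 CPM at high Samul-tang, above vehicle in both, and at 8.71, 10.0 and 7.32 CPM at high Rehmannia, which overlapped it. The 3 H3 genes together were at 3.92, 2.99 and 3.02 CPM in vehicle and lay above this range at high Samul-tang alone of the 3 extracts, at 4.04 and 4.18 CPM. The only H1 gene among the 20, H1-2, did not show this: it was at 9.45, 9.13 and 10.4 CPM in vehicle and between 8.08 and 9.98 CPM in the same 8 libraries, with log2 fold changes of -0.10 ± 0.14, -0.05 ± 0.14 and -0.09 ± 0.15 that were not called. Of the H3 genes at high Cnidium, H3C10 was at 1.57, 1.54 and 1.53 CPM, within its vehicle range of 1.29 to 2.34 CPM. H3C6, at 1.20, 0.997 and 1.42 CPM against 0.884 to 0.980 CPM in vehicle, and H3C8, at 0.825, 0.747 and 0.858 CPM against 0.571 to 0.727 CPM, lay above all vehicle libraries. None of the 3 H3 genes, nor H4C8, was called in any comparison. The log2 fold change of H4C8 was 0.44 ± 0.20 at high Cnidium, 0.38 ± 0.20 at high Rehmannia and 0.35 ± 0.22 at high Samul-tang.

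Angelica and Paeonia had 1 library a dose and no test. H2AC6 was at 12.4 CPM at high Angelica and 12.1 CPM at high Paeonia, above the vehicle libraries. H2BC12 was at 4.92, 3.68 and 4.96 CPM at high, medium and low Angelica and at 4.4, 3.44 and 2.59 CPM at high, medium and low Paeonia. High and low Angelica were thus alike in H2BC12, while in Paeonia the order followed the dose.

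**Figure D3:**
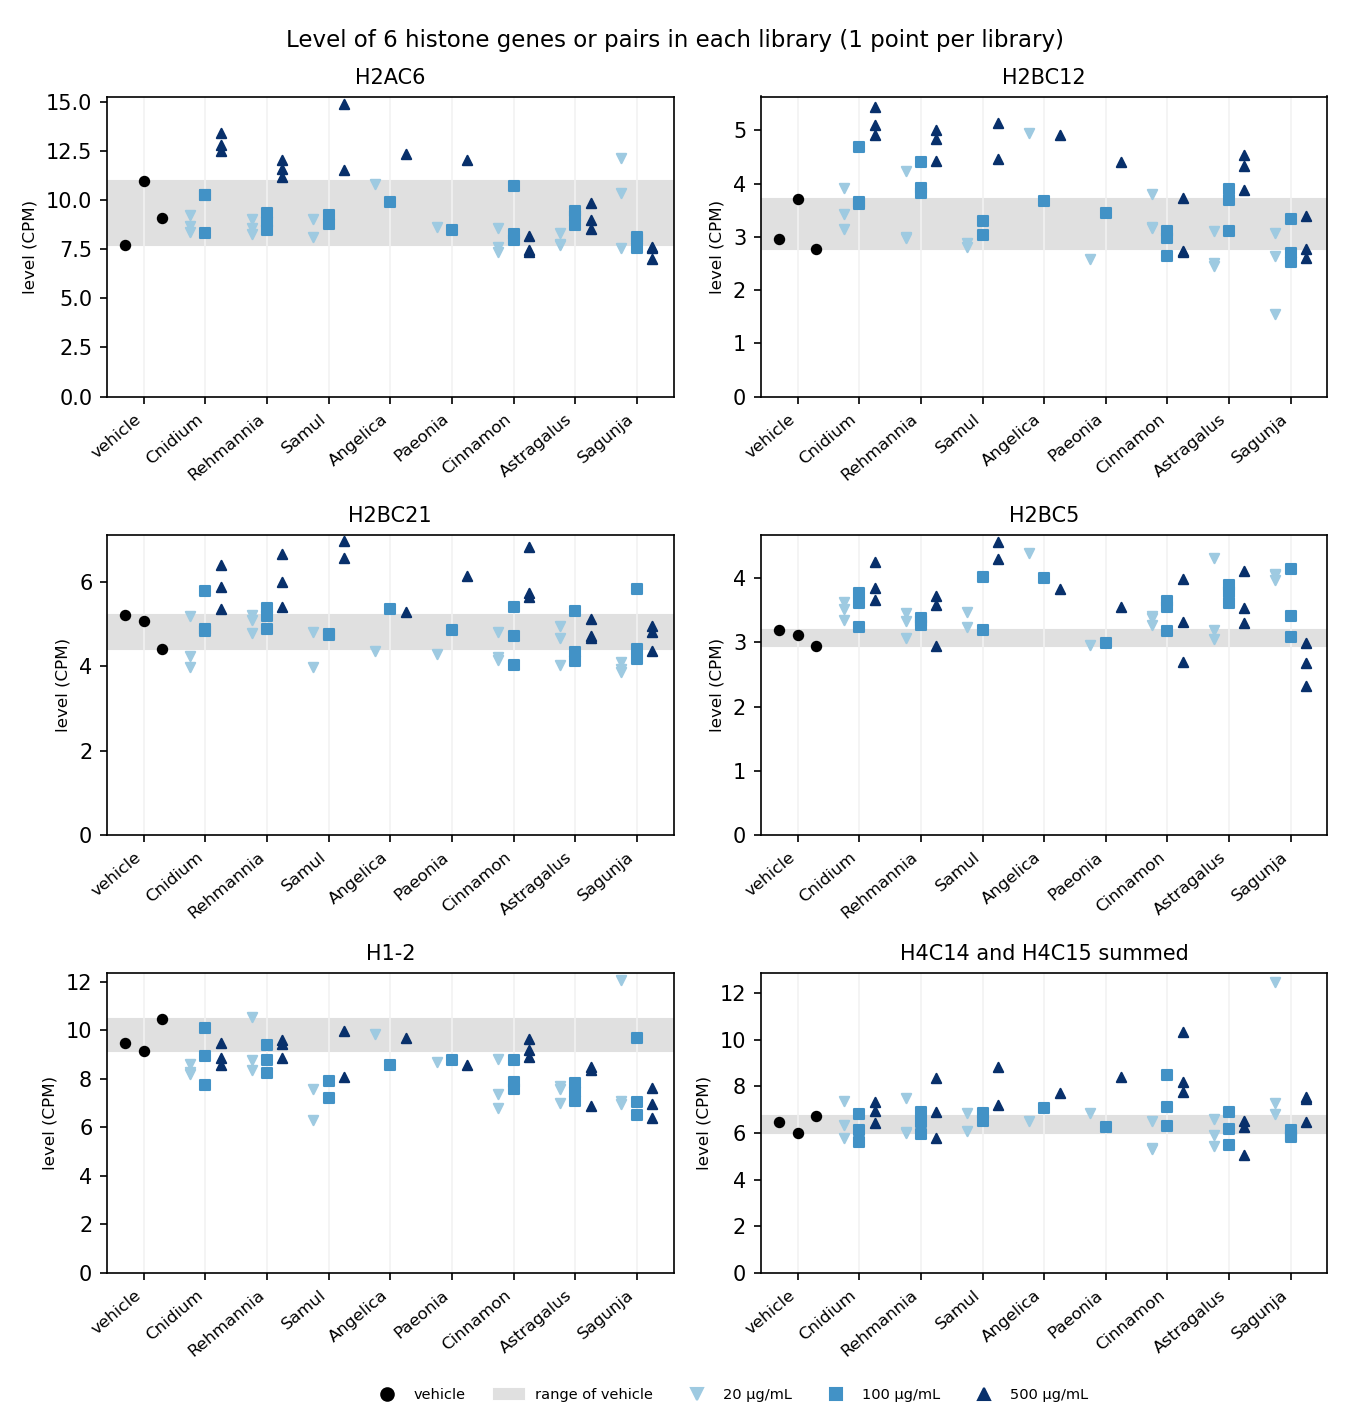
Levels (CPM, axis from 0) of H2AC6, H2BC12, H2BC21, H2BC5, H1-2 and the sum of H4C14 and H4C15 in each library, by extract, with vehicle as black circles and its range as a grey band, and light triangles, squares and dark triangles for 20, 100 and 500 µg/mL. H2AC6 and H2BC12 lie above the vehicle band at high Cnidium, Rehmannia and Samul-tang, and H2BC5 at high Sagunja-tang, at 2.31, 2.68 and 3.00 CPM, lies partly below it.

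Within 1 set of codes, where dose alone differs by the labels, the pattern of H2AC6 was seen in Cnidium and Samul-tang. Between high and low Cnidium, 1 of the 20 genes, H2AC6, rose and none fell, where 0.228% of all genes tested were called. It was at 9.27, 8.39 and 8.67 CPM at the low dose and at 12.5, 13.4 and 12.8 CPM at the high dose, with a log2 fold change of 0.56 ± 0.12, or 1.47-fold (edgeR adjusted p = 0.0184). The call was lost without any 1 of the high-dose libraries or without low-dose library 2 or 3 (0.0515 to 0.148), at log2 fold changes from 0.53 to 0.60. Between high and low Samul-tang, 2 genes rose and none fell, where 0.736% of all genes tested were called. H2AC6 was at 9.04 and 8.12 CPM at the low dose against 14.9 and 11.5 CPM, a log2 fold change of 0.62 ± 0.14 (edgeR adjusted p = 0.0207). H2BC21 was at 3.98 and 4.81 CPM against 6.58 and 6.97 CPM, a log2 fold change of 0.62 ± 0.15 (edgeR adjusted p = 0.0231). Neither pair of groups overlapped. With 2 libraries a group, leaving out high library 1 or either low library ended the H2AC6 call (0.113 to 0.51), and leaving out any of the 4 ended that of H2BC21 (0.0682 to 0.613), which was also lost with no filter (0.0897) and in a fit of the compared groups alone (0.0599).

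Between high and low Rehmannia none of the 20 genes was called by edgeR, where 0.805% of all genes tested were called, while 3 had an unadjusted p below 0.05 and DESeq2's Wald test called 1. Counts at that unadjusted cut, here and below, have no share of all genes beside them and are not read as a result. H2AC6 was at 8.26, 9.06 and 8.58 CPM at the low dose and at 11.2, 11.6 and 12.1 CPM at the high dose, without overlap, with a log2 fold change of 0.43 ± 0.12 and an edgeR adjusted p of 0.0776. Of the 20 genes, 19 had a log2 fold change above 0, with a median of 0.15. The corresponding counts above 0 were 17 for Cnidium (median 0.23) and 17 for Samul-tang (median 0.36), where the medians over all genes were 0.00. The change in dose effect between Cnidium and Rehmannia was tested directly: none of the 20 genes was called by edgeR's test or by DESeq2, 1 had an unadjusted p below 0.05, and 0.04% of all genes tested were called. The difference was 0.13 ± 0.17 for H2AC6 and 0.08 ± 0.22 for H2BC12, which leaves room for a difference in either direction.

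At high Cinnamon against vehicle, 2 of the 20 genes rose, H2BC21 and H4C15, and none fell, where 22.8% of all genes tested were called, a larger share than among the 20. H2BC21 was at 5.64, 6.85 and 5.75 CPM, above all vehicle libraries, with a log2 fold change of 0.32 ± 0.12 (edgeR adjusted p = 0.0456). That call was lost without any 1 vehicle library or without Cinnamon library 2 or 3 (0.0502 to 0.247), with no filter (0.191) and with DESeq2's Wald test or size factors (0.0704 and 0.0532). H4C15, an H4 gene of the chromosome 1 cluster, was at 4.34, 3.84 and 2.94 CPM in vehicle and at 7.37, 5.75 and 6.59 CPM at high Cinnamon, with a log2 fold change of 0.84 ± 0.28 (edgeR adjusted p = 0.0274). It was lost without vehicle library 2 or 3 or Cinnamon library 1 or 3 (0.0572 to 0.128). H4C14 is its near-identical copy, and the sum of both was 6.46, 6.02 and 6.73 CPM in vehicle and 10.3, 7.77 and 8.19 CPM at high Cinnamon. The log2 fold change of that sum was 0.47 (edgeR adjusted p = 0.0232), smaller than that of H4C15 alone.

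Between high and low Cinnamon, 3 of the 20 genes rose and none fell, where 21.6% of all genes tested were called. H4C15 was at 2.17, 3.71 and 1.88 CPM at the low dose, and its log2 fold change was 1.34 ± 0.30 (edgeR adjusted p = 0.000686). For the sum of H4C14 and H4C15, at 5.32, 5.34 and 6.52 CPM at the low dose, the log2 fold change was 0.62 (edgeR adjusted p = 0.00277). H2BC21 was at 4.14, 4.82 and 4.22 CPM at the low dose, with a log2 fold change of 0.47 ± 0.12 (edgeR adjusted p = 0.00337). H2AC25, an H2A gene that lies apart on chromosome 1, was at 1.67, 2.04 and 2.01 CPM at the low dose and at 3.35, 2.39 and 2.39 CPM at the high dose, with a log2 fold change of 0.52 ± 0.16 (edgeR adjusted p = 0.0159). The groups did not overlap for any of these genes. Vehicle was at 3.19, 2.63 and 2.69 CPM in H2AC25, and thus closer to the high dose than to the low dose. Only the H2AC25 call was lost when 1 library was left out, without high or low library 1 (0.095 to 0.202), and it was lost with no filter (0.0955) and in a fit of the compared groups alone (0.0509).

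H2AC6 and H2BC12, which were higher at high Cnidium, were at 7.37, 7.48 and 8.19 CPM and at 2.71, 3.74 and 2.73 CPM at high Cinnamon. Their log2 fold changes against vehicle were -0.26 ± 0.12 and -0.03 ± 0.17 and were not called. Over the 20 genes the median against vehicle was -0.04.

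With Astragalus, which shares its set of codes with Cinnamon, none of the 20 genes was called by edgeR at the high dose against vehicle or between high and low dose, where 4.45% and 0.28% of all genes tested were called. At an unadjusted p below 0.05, a cut for which no share of all genes is given, there were 3 and 1, and DESeq2 called 0 and 1. H2BC12 was at 4.54, 4.34 and 3.88 CPM at the high dose and at 2.52, 2.46 and 3.11 CPM at the low dose. These groups did not overlap, and the log2 fold change was 0.65 ± 0.16 with an edgeR adjusted p of 0.072. The difference in dose effect between Cinnamon and Astragalus was called for 2 of the 20 genes, where 14.4% of all genes tested were called. For H4C15 it was 1.68 ± 0.41 (edgeR adjusted p = 0.00382), the dose effect being larger in Cinnamon. On the sum of H4C14 and H4C15 it was 0.64 (edgeR adjusted p = 0.0477). For H2BC12 it was -0.80 ± 0.23 (edgeR adjusted p = 0.0146), with a negative value where the dose effect was larger in Astragalus, and the call was lost without low Cinnamon library 1 (0.0552).

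**Figure D4:**
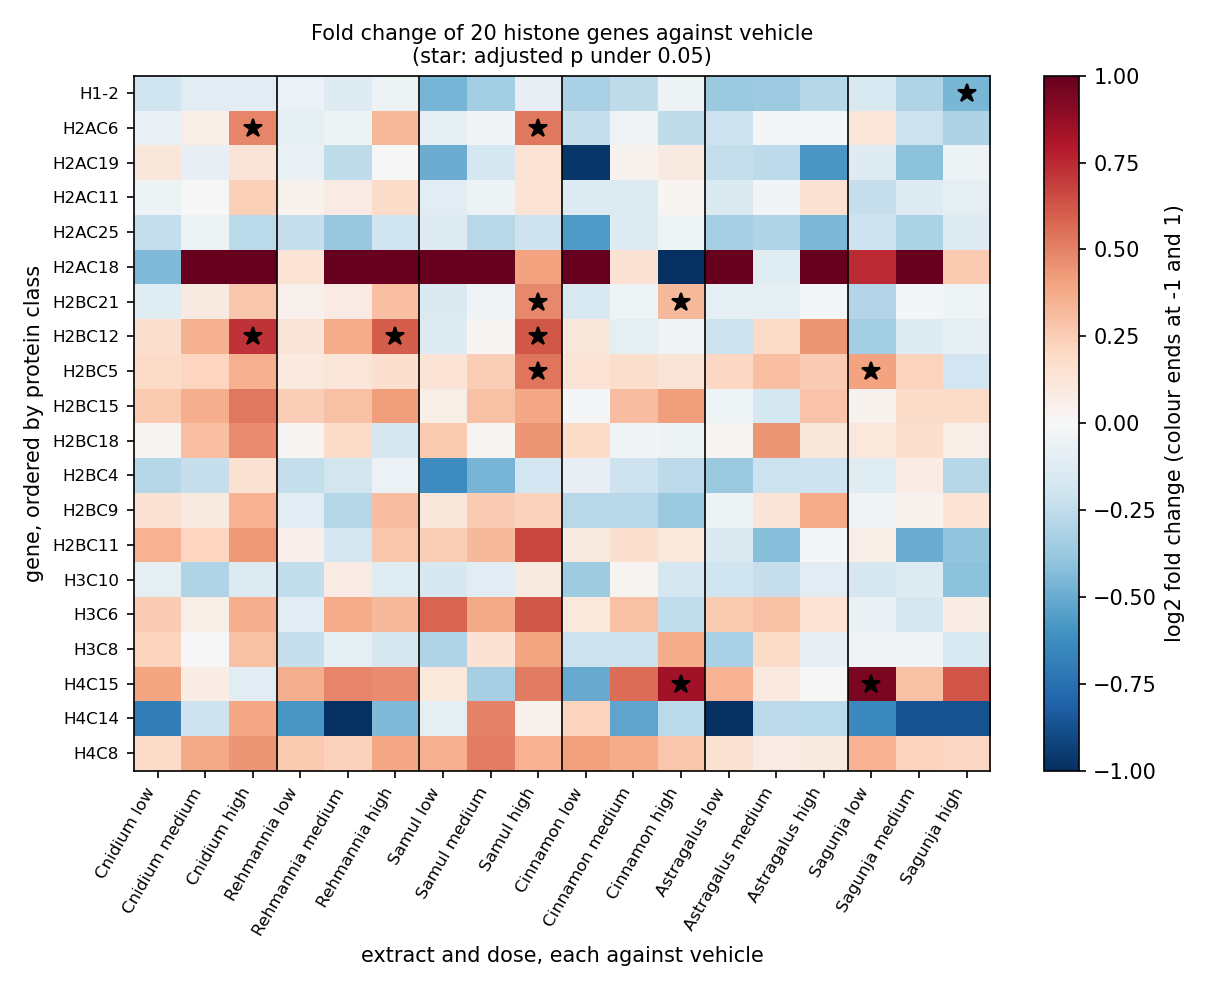
Log2 fold change against vehicle of the 20 histone genes (rows, by protein class) for 6 extracts at 3 doses (columns), red for higher and blue for lower, with stars where the edgeR adjusted p is below 0.05. Stars fall on H2AC6 and H2B genes at high Cnidium and Samul-tang, on H2BC12 at high Rehmannia, and on H2BC21 and H4C15 at high Cinnamon. The strong colours of H2AC18, H4C14 and H4C15 come from genes whose reads are divided among near-identical copies.

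At high Sagunja-tang against vehicle, 1 of the 20 genes, H1-2, fell and none rose, where 17.1% of all genes tested were called. H1-2 was at 6.94, 7.62 and 6.39 CPM, below the vehicle libraries at 9.45, 9.13 and 10.4 CPM. Its log2 fold change was -0.45 ± 0.14 (edgeR adjusted p = 0.0209), and the call was lost without vehicle library 3 or Sagunja-tang library 1 or 3 (0.0593 to 0.103). The linker histone was also low in libraries 2 and 3 of medium Sagunja-tang, at 7.03 and 6.52 CPM, and of low Sagunja-tang, at 7.06 and 6.96 CPM. Library 1 was at 9.70 CPM at the medium dose and, in the library that stands apart, at 12.1 CPM at the low dose.

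At low Sagunja-tang against vehicle, 2 of the 20 genes rose, H4C15 and H2BC5, and none fell, where 22.1% of all genes tested were called. H4C15 was at 9.0, 5.96 and 6.37 CPM, with a log2 fold change of 0.94 ± 0.28 (edgeR adjusted p = 0.0165). Without library 1 this became 0.73 with an adjusted p of 0.131. The sum of H4C14 and H4C15 was 12.5, 7.29 and 6.82 CPM, with a log2 fold change of 0.47 (edgeR adjusted p = 0.0277), and of 0.14 (0.567) without library 1. H2BC5 was at 4.06, 3.97 and 4.06 CPM, all above vehicle, with a log2 fold change of 0.40 ± 0.13 (edgeR adjusted p = 0.021). Without library 1 it was 0.38 with an adjusted p of 0.0753. Both calls were also lost without vehicle library 3 and in a fit of the compared groups alone (0.747 for both), and that of H2BC5 with no filter (0.173). The summed level in library 1 was 66.7 CPM, against 52.9 and 54.6 CPM in its replicates.

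Between high and low Sagunja-tang, 2 of the 20 genes fell with dose and none rose, where 20.5% of all genes tested were called. H2BC5 was at 2.31, 2.68 and 3.00 CPM at the high dose, below every low-dose library, with a log2 fold change of -0.59 ± 0.13 (edgeR adjusted p = 0.00147). This call was kept when any 1 library was left out, at log2 fold changes from -0.69 to -0.50, but was lost in a fit of the compared groups alone (0.686). H2AC6 was at 6.99, 7.62 and 7.55 CPM at the high dose and at 12.2, 7.56 and 10.3 CPM at the low dose. These values overlapped, and the log2 fold change of -0.43 ± 0.12 (edgeR adjusted p = 0.0131) became -0.26 with an adjusted p of 0.259 without low-dose library 1. The call was lost without high-dose library 1 and in a fit of the compared groups alone (0.768) as well.

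Sagunja-tang and Samul-tang share a set of codes, and their dose effects were compared directly. The difference was called for 2 of the 20 genes, both more negative in Sagunja-tang, where 2.89% of all genes tested were called. It was -1.05 ± 0.19 for H2AC6 (edgeR adjusted p = 0.000413) and -0.99 ± 0.20 for H2BC5 (edgeR adjusted p = 0.0018). Both calls were kept when any 1 library of the 4 groups was left out, at differences from -1.22 to -0.85 and from -1.09 to -0.90, and both were lost in a fit of these groups alone (0.775 and 0.438) at differences of -1.06 and -0.997. The median difference over the 20 genes was -0.43, and that over all genes -0.02.

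**Figure D5:**
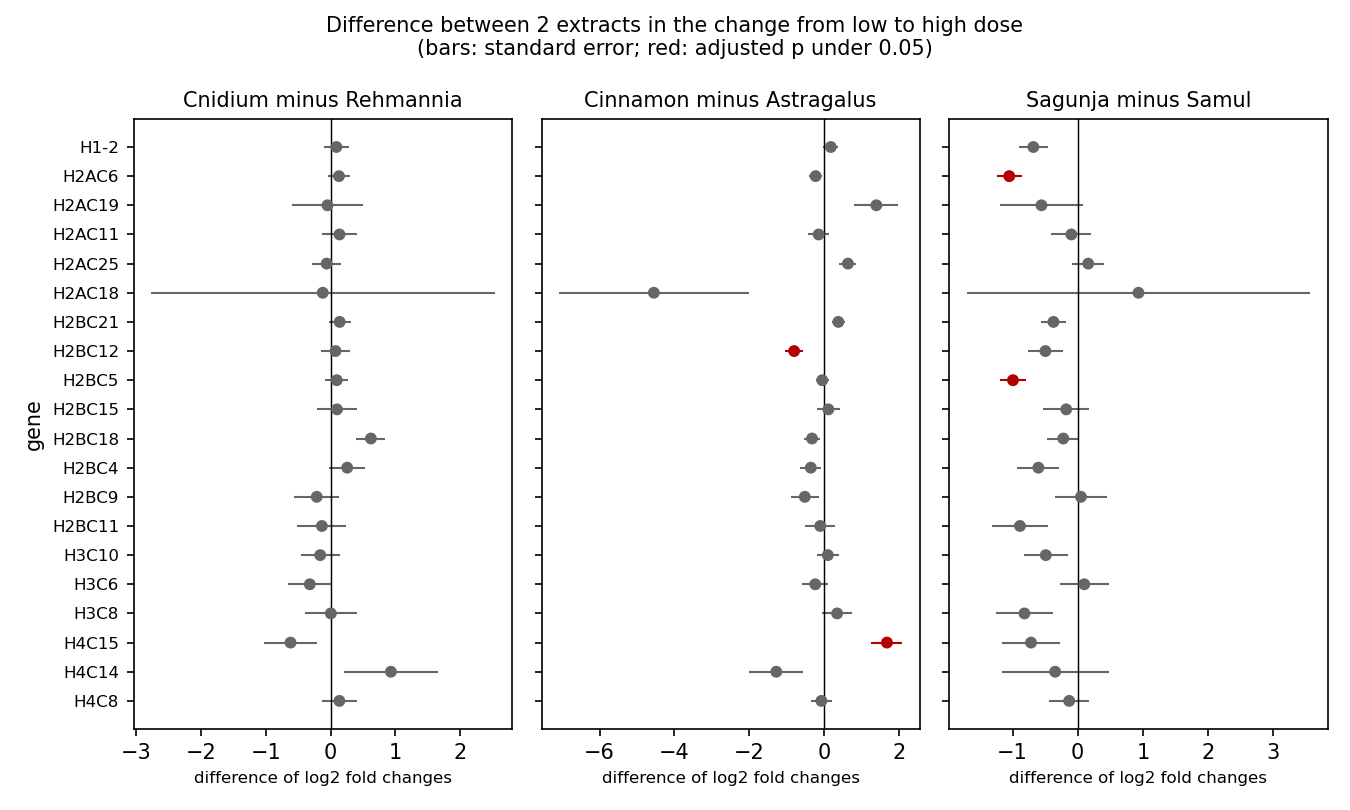
Difference between 2 extracts of 1 set in the log2 fold change from low to high dose, for each of the 20 histone genes, with standard errors as bars and red points where the edgeR adjusted p is below 0.05. No point is red for Cnidium minus Rehmannia, H4C15 and H2BC12 are red on opposite sides of 0 for Cinnamon minus Astragalus, and H2AC6 (-1.05) and H2BC5 (-0.99) are red for Sagunja-tang minus Samul-tang.

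At the medium and low doses, no gene of the 20 other than H4C15 and H2BC5 at low Sagunja-tang was called by edgeR or by DESeq2's Wald test against vehicle. The share of all genes called at the medium dose was 0.297% in Cnidium, 0.714% in Rehmannia, 2.29% in Cinnamon, 3.94% in Astragalus, 6.32% in Sagunja-tang and 1.75% in Samul-tang. At the low dose it was 0.383% in Cnidium, 0.993% in Rehmannia, 1.06% in Cinnamon, 3.67% in Astragalus and 2.62% in Samul-tang. At an unadjusted p below 0.05, the medium doses had 1, 3, 0, 3, 1 and 3 of the 20 genes in that order, and the low doses 0, 0, 4, 2 and 3. The share of all genes at this unadjusted cut is not given, so these counts are not read as a result. Over the 24 comparisons of 2 groups, 7 of the 20 genes were called at least once and 13 never, with 17 calls of a higher and 3 of a lower level among 480 tests. That is 4.17% of these tests, where 5.93% of the tests over all genes were called. The 2 shares are not alike in power. In data simulated for high Cnidium against vehicle, 22% of 1.5-fold and 80% of 2-fold rises were called at the level of these genes. Among other genes it was 70% and 82%. Rises of 1.5-fold in genes between 0.670 and 9.35 CPM were thus mostly missed in that setting. Its spread came from the fit that includes library 1 of low Sagunja-tang. Single genes of the 20 and the other comparisons were not simulated.

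Without library 1 of low Sagunja-tang, which entered the shared estimate of the spread, the biological coefficient of variation was 0.0551 in place of 0.0946, and 22 calls of a higher and 10 of a lower level were made. The share of all genes called changed too. Against vehicle it rose from 2.37% to 7.65% at high Rehmannia and from 2.62% to 13.2% at low Samul-tang. It fell from 22.1% to 11.4% at low Sagunja-tang and from 20.5% to 6.49% between high and low Sagunja-tang. A share pooled over comparisons is not given for this fit, so its calls cannot be set against one. H1-2 then fell in more groups: at medium and low Astragalus (log2 fold change -0.38 in both, edgeR adjusted p = 0.0181 and 0.0153), where 13.9% and 14.1% of all genes were called, at medium and low Sagunja-tang (-0.31 and -0.47, 0.0433 and 0.013), where 17.6% and 11.4% were called, and at low Samul-tang (-0.48, 0.00912), where 13.2% were called. At high Sagunja-tang H2AC6 fell too (-0.32, edgeR adjusted p = 0.0212), where 30.9% of all genes were called.

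H2BC12 was then higher at the high than at the low dose in Cnidium (0.56, edgeR adjusted p = 0.0275), Rehmannia (0.48, 0.0357), Astragalus (0.65, 0.00905) and Samul-tang (0.76, 0.00731), where 0.957%, 3.51%, 1.16% and 1.92% of all genes were called. H2AC6 rose at high Rehmannia both against vehicle (0.33, edgeR adjusted p = 0.0424), where 7.65% of all genes were called, and against the low dose (0.43, 0.0105). At high Astragalus against vehicle H2BC12 rose (0.43, edgeR adjusted p = 0.0356) and H2AC25 fell (-0.46, 0.0414), where 12.7% of all genes were called. H2AC25 also fell at low Cinnamon (-0.58, edgeR adjusted p = 0.0202), where 5.45% were called, and its dose effect differed between Cinnamon and Astragalus (0.64, 0.029), where 27.8% were called. Between high and low Sagunja-tang 6.49% of all genes were then called, with H2AC6 no longer among them.

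Other genes of the histone pathway were read at the high doses against vehicle. The share of all genes called there was 1.35% for Cnidium, 2.37% for Rehmannia, 4.13% for Samul-tang and 4.45% for Astragalus. It was 22.8% for Cinnamon and 17.1% for Sagunja-tang. Of 20 genes for histone transcription and 3′ processing, none was called at high Cnidium or Rehmannia, and 1 fell at high Samul-tang: SLBP, which binds the stem-loop, at 56.1 against 66.2 CPM in vehicle (log2 fold change -0.22 ± 0.07, edgeR adjusted p = 0.0487). At high Cinnamon 1 rose and 2 fell, the endonuclease gene CPSF3 (0.27 ± 0.07) and CASP8AP2 (-0.61 ± 0.14) and SRRT (-0.47 ± 0.09). At high Sagunja-tang CPSF3 (0.24 ± 0.07) and the cyclin gene CCNE1 (0.18 ± 0.06) rose and SRRT (-0.33 ± 0.09) fell. None was called at high Astragalus.

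Of 15 genes for histone mRNA decay, 2 rose (LSM4 and LSM6) and 1 fell (PNRC2) at high Cinnamon against vehicle, and none was called at the other 5 high doses. For each list here, the share of all genes called was 22.8% at high Cinnamon, 17.1% at high Sagunja-tang and 4.13% at high Samul-tang. Of 18 histone chaperone genes, none was called at high Cnidium, Rehmannia or Astragalus. IPO4, an importin gene, fell at high Samul-tang (115 against 146 CPM, log2 fold change -0.33 ± 0.07), Cinnamon (-0.37 ± 0.06) and Sagunja-tang (-0.26 ± 0.06). At high Cinnamon NASP, SSRP1 and ATRX also fell, the last from 130 to 72.2 CPM (-0.84 ± 0.07), and at high Sagunja-tang CABIN1 fell (-0.44 ± 0.09). Of 11 replication-independent histone genes tested, none was called at high Cnidium, Rehmannia, Samul-tang or Astragalus. At high Sagunja-tang 1 rose and 1 fell, and at high Cinnamon 2 fell. MACROH2A1 fell at high Cinnamon (-0.20 ± 0.04) and Sagunja-tang (-0.15 ± 0.04), and H2AX fell at high Cinnamon (-0.30 ± 0.11).

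Markers of the cell cycle were read at the same doses. Of 25 S phase and replication genes, none was called at high Cnidium or Astragalus, and 1 fell at high Rehmannia (median log2 fold change of the list -0.09) and 1 at high Samul-tang (median -0.04). At high Cinnamon 1 rose and 4 fell, against 22.8% of all genes called there. At high Sagunja-tang, where 17.1% of all genes were called, 6 rose, including GINS1 (0.35 ± 0.07) and PRIM1 (0.43 ± 0.08), and 1 fell, RRM2, at 0.097 against 0.361 CPM. Of 14 G2 and mitosis genes, 1 fell at high Cnidium, 2 at high Rehmannia and 4 at high Samul-tang, and none rose there. CCNB2, a mitotic cyclin, was in all 3, at 69.6, 70.0 and 69.9 CPM against 80.8 CPM in vehicle. At high Cinnamon 11 of the 14 fell, among them CENPE from 65.9 to 17.6 CPM (-1.89 ± 0.15) and MKI67 from 332 to 121 CPM (-1.44 ± 0.16). At high Sagunja-tang 1 rose and 3 fell, and at high Astragalus none was called. The sum of the 14 genes had a mean of 2604 CPM in vehicle, above that of every extract group at every dose. At high and low dose it was 2397 and 2406 CPM in Cnidium, and 2324 and 2332 CPM in Rehmannia. In Samul-tang it was 2256 and 2387 CPM, and in Cinnamon 1785 and 2375 CPM. Lower values than in vehicle were thus not particular to the high doses. The part of the cell cycle in the histone values was not tested.

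How much RNA without a tail the libraries hold was read from 20 small RNA genes of the kind of RN7SL1, the RNA of the signal recognition particle. Of these, 18 had a mean below 1 CPM. RN7SL1 at 14.3 and RN7SL2 at 13.6 CPM made up most of the sum, which thus mainly reads these genes. The highest sum was 330 CPM, in the 1 library of medium Angelica. The sum of the 20 genes was 9.26 to 13.7 CPM in vehicle, 10.7 to 15.7 CPM at high Cnidium and 10.0 to 13.6 CPM at high Rehmannia. These ranges overlapped. The sum was 20.5 to 28.0 CPM at high and 24.2 to 174 CPM at low Samul-tang, and 11.5 to 49.4 CPM at high and 8.34 to 20.8 CPM at low Cinnamon. In Sagunja-tang it was 25.2 to 56.9 CPM at the high dose and 12.6 to 153 CPM at the low dose. Of 4 genes of this list with enough counts, none was called at any of the 6 high doses against vehicle. At lower doses 3 rose at low and none at medium Samul-tang, where 2.62% and 1.75% of all genes tested were called. In Sagunja-tang 2 rose at low and 1 at medium dose, where 22.1% and 6.32% were called. Low Sagunja-tang includes the library that stands apart, and its values here are not given without it. In high against low dose, 1 was higher in Rehmannia and 1 lower in Sagunja-tang, where 0.805% and 20.5% of all genes were called. In the Rehmannia, Samul-tang, Cinnamon and Sagunja-tang comparisons, the part of this difference in the histone values was not tested.

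Genes whose level most resembled the summed level of the 20 genes were sought over the means of 19 groups, as Pearson's r of log2(CPM + 1) among 10670 protein-coding genes. The 5 closest were GNB1L at 0.85, VAMP3 at 0.84, and ELAC2, SLC20A2 and CHST14 at 0.83 each. The group means share libraries, sets and depth, and these coefficients are a description of the groups only.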

How the data were processed

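The labels describe mRNA libraries (MGIEasy RNA Directional kit, paired reads on an MGIseq instrument) of SW1783 cells. Per the submitters' processing notes, reads were handled with RSEM 1.3.3 and STAR 2.7.3a on hg38, besides Trim Galore 0.6.5 and FastQC 0.11.9. The annotation release, poly(A) selection and strand setting were not given in the sources used here. Per gene, the authors deposited expected counts, of which 90.7% of values were whole, and these were rounded. A further 219 columns of the table were not used. Older symbols named 2 of the 20 genes.

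Genes with low counts were removed (filterByExpr), which left 17516, and 54 libraries of the 19 groups with at least 2 libraries were fitted together with edgeR 4.0.16 (TMM scaling factors 0.934 to 1.03, robust quasi-likelihood test, 35 residual degrees of freedom, R 4.3.3). P-values were adjusted by Benjamini-Hochberg over all genes tested, with a threshold of 0.05. The design had 18 comparisons of a dose with vehicle, 6 of high with low dose and 3 differences between dose effects. CPM are scaled by TMM, except that the threshold for choosing genes used library totals. A standard error is the log2 fold change divided by the square root of the F statistic. The procedure was tested on simulated data. No pair of replicates differed as little as sampling noise, which gives a median chi-square of 0.455 per gene.

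The genes given with values were the 3 highest of each class, called genes whose groups did not overlap (up to 4 per direction), and, of other lists, the 4 called genes with the largest change and at least 1 CPM. H2AC6 between high and low Sagunja-tang, where groups overlap, RRM2 and a few called list genes were added after their values were seen. Results for 2 genes of these lists are not reported here. The members and lists were chosen with earlier results of these data known. Alternatives were DESeq2 1.42.0's Wald test and size factors, library size alone, no filter, only the groups compared, a replicate block, leaving out each library, and, chosen after seeing the data, the counts of near-identical copies summed, with and without library 1 of low Sagunja-tang.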

Additional observations from a re-analysis of the deposited data

Results flagged for a closer look

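In 4 cases the change from low to high dose differed between 2 extracts of 1 set of sample codes, by edgeR's test of the difference with Benjamini-Hochberg adjustment. For Cinnamon minus Astragalus the difference on the log2 scale was 1.68 for H4C15 and -0.80 for H2BC12, so these genes differed in opposite directions. For Sagunja-tang minus Samul-tang it was -1.05 for H2AC6 and -0.99 for H2BC5, both being higher at the low than at the high dose of Sagunja-tang and the reverse in Samul-tang. H4C15 shares reads with H4C14, and for the sum of both the difference was 0.64. In addition, the low Sagunja-tang group holds the library that stands apart.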

How the results depend on the processing

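Low counts limit the precision of these genes. No gene call reversed direction under any alternative run. The summed level relative to vehicle did cross the vehicle mean with library totals in place of TMM. It went from 0.982 to 1.02 at high Astragalus, 0.983 to 1.01 at medium Cinnamon and 0.980 to 1.01 at low Cnidium. At low Rehmannia it went from 0.980 to 1.01, at medium Samul-tang from 0.976 to 1.02, and in the 1 library of medium Paeonia from 0.981 to 1.01. Without H2AC6, low Sagunja-tang went from 1.01 to 0.997. No clear pairing by replicate number was seen between groups compared: correlations of same-numbered deviations ran from -0.28 to 0.23 in 24 comparisons. Library 1 differed more from its replicates in some groups of the Cinnamon and Astragalus set and at medium Sagunja-tang. The median chi-square was 2.34 and 2.92 at high Astragalus and 2.06 and 1.77 at low Cinnamon. Libraries 2 and 3 had 0.749 and 0.712 there. At medium Sagunja-tang library 1 had 2.40 and 2.10, and libraries 2 and 3 had 0.999. The 2 libraries of high Samul-tang had 1.91. Whether same-numbered libraries of different extracts deviate together was not tested. The fit with a replicate block changed no call, leaving 24 of 24 gene calls on the same side of the threshold, as did library size alone and summed near-identical copies. With 1 library left out, 117 fits kept a gene call and 57 lost it, and 6 of the 24 calls were kept throughout. The causes were not tested.

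Over all 27 comparisons the 20 genes had 24 calls and all genes 27963. These became 27 and 31936 with DESeq2's Wald test, 23 and 28041 with its size factors, 41 and 28644 with no filter, 35 and 54671 with only the groups compared, and 37 and 50849 without library 1 of low Sagunja-tang and with copies summed. The number of the 20 genes called changed as follows. DESeq2's Wald test called 1 in high against low Astragalus and Rehmannia and 1 at high Cinnamon against vehicle, where DESeq2's size factors also left 1. With no filter on low counts (and without the robust option, which could not be fitted), 1 was called at high and low Astragalus, medium Cinnamon, medium Rehmannia and low Samul-tang against vehicle. Under that setting 2 were called at low Cinnamon, high Rehmannia, medium Sagunja-tang and high Samul-tang, 3 at high Sagunja-tang and in high against low Cnidium, 1 in high against low Rehmannia and Samul-tang, and 5 for Cinnamon minus Astragalus. With only the groups compared, 2 were called at low Astragalus and low Samul-tang, 1 at medium Astragalus, low and medium Cinnamon, medium Rehmannia and medium Samul-tang, and 3 at high Rehmannia and high Sagunja-tang. In that fit high against low gave 2 in Cnidium, 1 in Rehmannia and 0 in Sagunja-tang, and low Sagunja-tang and Sagunja-tang minus Samul-tang gave 0. Without library 1 of low Sagunja-tang and with copies summed, 2 were called at high Astragalus, Rehmannia and Sagunja-tang against vehicle and 1 at medium and low Astragalus, low Cinnamon, medium and low Sagunja-tang and low Samul-tang. High against low then gave 1 in Astragalus and Sagunja-tang and 2 in Cnidium and Rehmannia.

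With each library left out in turn, the number called ranged from 0 to 1 in high against low Astragalus, at medium and low Astragalus, low Cinnamon, medium Sagunja-tang and low Samul-tang. It ranged from 0 to 2 at high Astragalus, Cinnamon, Cnidium, Rehmannia and Sagunja-tang and in high against low Cnidium and Rehmannia. The range was 0 to 3 at low Sagunja-tang and in high against low Samul-tang, 0 to 4 at high Samul-tang, 1 to 4 in high against low Sagunja-tang, 2 to 3 in high against low Cinnamon and for Sagunja-tang minus Samul-tang, and 1 to 3 for Cinnamon minus Astragalus.

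Relative to vehicle, the summed level with library totals in place of TMM was 1.02, 0.973 and 0.931 at high, medium and low Astragalus, 1.06 and 1.01 at high and medium Cinnamon, 1.23 and 1.01 at high and low Cnidium, 1.18 and 1.04 at high and medium Rehmannia, and 1.29 and 1.02 at high and medium Samul-tang. Without H2AC6 it was 1.06 at high Cinnamon, 1.15 at high Cnidium and 0.987 at low Cnidium. A threshold of 0.25 CPM kept 31 genes and one of 1 CPM kept 16.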
